A study of Mus musculus with 12 samples.

Results

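The comparison described here is what β-estradiol (EST) did within 6 h to G1E-ER4 cells that carried an empty vector, in 3 Vector+EST libraries against 3 Vector libraries. These 6 of the 12 libraries of the series were chosen by their labels, and all 17210 genes of the count table were considered, of which 11177 had enough counts to be tested. G1E-ER4 is a mouse erythroid progenitor line without GATA1 of its own. It carries a hormone-controlled form of the factor instead, a fusion with the part of the estrogen receptor that binds EST. Vector cells were transduced for 24 h with an empty retroviral vector, and then received vehicle only, while Vector+EST cells were transduced in the same way and then received EST. The sample protocol and the study's RNA-seq methods state 500 nM EST, while the design text of the series states 200 nM. The other 6 libraries came from cells transduced with active SREBP2, without or with EST, and served here to estimate the spread between libraries. All groups share the fusion protein, the retroviral transduction and the single cell line. The series was sequenced in triplicate by its design text. A supplementary legend of the study gives n=3 for heat maps of these transcriptomes, and mentions independent experiments for data shown as mean and SD. It does not say whether the 3 RNA libraries of a group are such experiments. The p-values therefore measure the spread between libraries, which may be technical.

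GATA1 is a zinc finger transcription factor that erythroid precursors need in order to mature. It binds the letters GATA in promoters and enhancers, raises some genes and lowers others, and is known for replacing the related factor GATA2 at shared sites in what is called the GATA switch. EST lets the fusion protein act in the nucleus. In a bulk sample, fewer cells of a type and less RNA per cell cannot be told apart.

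The labels name the cell type as embryonic stem cells of strain C57BL/6J. Of 10 pluripotency markers 5 were in the table, and together they reached 0.155 to 0.614 CPM in each of the 6 libraries. CPM relates a gene's counts to the total of its library after TMM scaling, a correction for composition, and 3 counts, taken as the floor, were 0.153 to 0.163 CPM. The 10 erythroid markers summed to between 9001 and 9412 CPM in Vector and to between 6537 and 6565 CPM in Vector+EST, while 6 myeloid markers stayed at or under 0.510 CPM. Most of the fall in the erythroid sum was in Gata1, given below, and Hba-a1. Hba-a1 went from 3223, 3018 and 3031 CPM to 1712, 1735.5 and 1764 CPM. Of the same markers Klf1, Tfrc and Alas2 rose, Alas2 from 52.3, 52.0 and 52.0 CPM to 142, 130 and 141 CPM. The 4 lymphoid markers in the table went from between 0.102 and 0.154 CPM to between 0.773 and 1.15 CPM, and the 14 neural markers from between 182 and 190 CPM to between 221 and 225 CPM. The lymphoid rise was that of Cd79a, at 0.773, 1.15 and 1.01 CPM with EST. The neural rise was that of Mbp, from 166, 165 and 169 CPM to 214, 213 and 215 CPM. Among the other neural markers Tubb3 and Syt1 fell, Tubb3 from 8.52, 7.85 and 7.58 CPM to 1.03, 1.25 and 1.11 CPM. The 6 megakaryocyte markers went from between 54.6 and 63.0 CPM to between 44.1 and 52.8 CPM, and the 5 mast cell markers in the table from between 14 and 15.6 CPM to between 5.31 and 6.95 CPM. The 3 muscle markers in the table went from between 3.06 and 4.16 CPM to between 1.59 and 1.96 CPM. The 3 liver markers in it went from between 39.7 and 43.2 CPM to between 32.8 and 36.5 CPM. The 11 fibroblast markers in the table summed to between 21.2 and 22.3 CPM in Vector, to 6.54 and 6.70 CPM in Vector+EST libraries 3 and 1, and to 37.3 CPM in Vector+EST library 5. Col1a1, a collagen chain of such cells, was at 0, 0 and 13.4 CPM in Vector+EST libraries 1, 3 and 5. It was at 6.50, 13.8 and 6.84 CPM in SREBP2+EST libraries 1, 2 and 5, and at or under 0.05425 CPM in every Vector and SREBP2 library. Col1a2, its partner chain, was at 18.9, 19.9 and 19.6 CPM in Vector and at 4.43, 4.60 and 7.38 CPM in Vector+EST, lower in every EST library. Thy1, also on this list, was at 0.0531 CPM in Vector+EST library 5 and at 0, 0 and 0.0539 CPM in SREBP2+EST. In the other libraries Thy1 was between 0.868 and 2.87 CPM. The part of these markers in the results was not tested, and counts that move by over 1.5 times without library 5 are given with that value. Library totals ran from 18700959 to 19152281 counts. The 3 Vector libraries stood apart from the other 9 on the first principal component, which held 65.3% of the variance, and SREBP2 libraries without EST lay on the same side as Vector+EST. A difference of the Vector group other than EST therefore cannot be told apart from the EST effect. Library 1 of the SREBP2 group and library 1 of the SREBP2+EST group stood apart from the other 2 of their group, at a mean chi-square per gene of at least 5.88 against 2.23 and 2.55 between those others and 1.79 to 3.22 within Vector and Vector+EST. For some genes each lay nearer to the other group, as for Kcnn4, at 22, 51.2 and 51.5 CPM in SREBP2 libraries 1, 3 and 5 and at 49.2, 27.2 and 32.0 CPM in SREBP2+EST libraries 1, 2 and 5. Neither enters a Vector or Vector+EST level, and without both the EST comparison called 8229 genes in place of 7893, with 878 rises and 931 falls of at least 2-fold.

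Reads of Gata1 and Gata2 were examined as a check of the labels. Gata2, the progenitor factor that GATA1 replaces, stood at 656, 624 and 653 CPM in Vector libraries 1, 4 and 5 and at 156, 151 and 160.0 CPM in Vector+EST libraries 1, 3 and 5. Zfpm1, which encodes the GATA1 partner FOG1, stood at 592, 561 and 579 CPM against 1190.0, 1168 and 1247 CPM in the same order. The groups did not overlap for either gene, with Gata2 lower and Zfpm1 higher with EST. SREBP2 libraries without EST stood at 128, 133 and 132 CPM for Gata2, 1132, 1185 and 1137 CPM for Zfpm1 and 511, 585 and 575 CPM for Gata1, near Vector+EST, so these genes do not tell libraries with EST from all those without it. Gata1 reads, which the counts do not divide between the fusion gene and the cell's own locus, were at 1786, 1752 and 1771 CPM in Vector. In Vector+EST they were at 467, 419.8 and 471 CPM, a 3.91-fold fall. Reads assigned to the estrogen receptor gene Esr1 fell with them, from 289, 295 and 306 CPM to 70.5, 63.5 and 74.8 CPM. They amounted to between 14.7% and 17.3% of the Gata1 reads in each of the 12 libraries, so the count does not separate the cell's own Esr1 from the receptor part of the fusion.

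Of the 11177 tested genes, 70.6% passed an adjusted p of 0.05 in edgeR's quasi-likelihood test with Benjamini-Hochberg adjustment, 35.2% upward and 35.5% downward. Libraries of the groups did not overlap for 75.7% of genes. With most genes past the p threshold, classes were told apart by size, and a second rule asked for at least a 2-fold change besides. By that rule 933 genes (8.35%) rose and 828 (7.41%) fell. At 4-fold the numbers were 205 and 211, and at 8-fold 71 and 61. The median over all tested genes was 0.01 on the log2 scale. The summed mean level of the 2-fold risen genes went from 30658 CPM in Vector to 83224 CPM in Vector+EST, and that of the 2-fold fallen genes from 52052 to 18848 CPM.

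**Figure D1:**
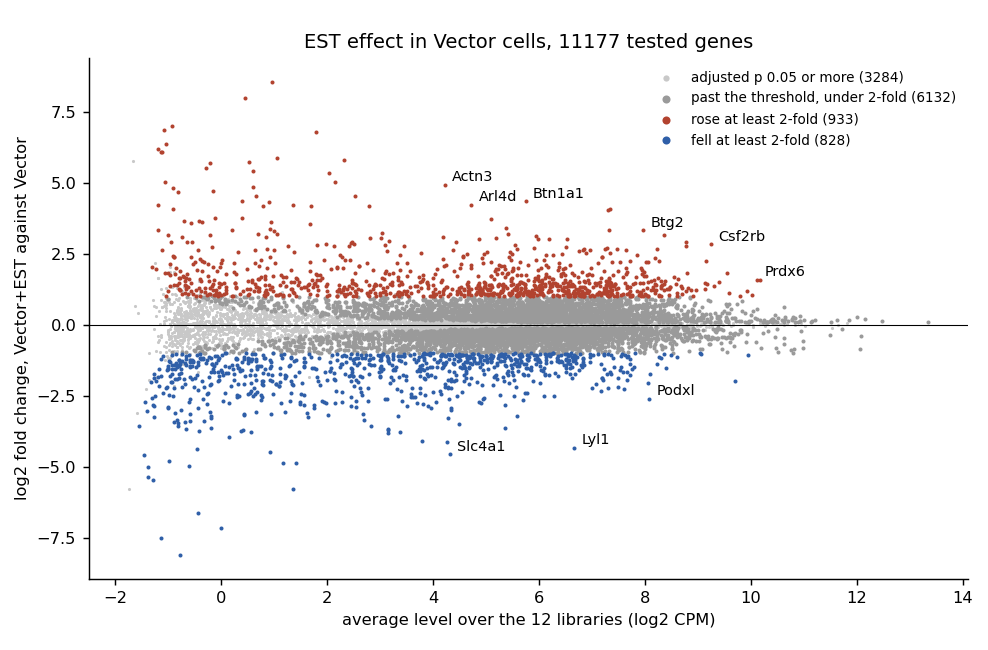
Each point is 1 of the 11177 tested genes, with its average level over the 12 libraries (log2 CPM, horizontal) and its log2 fold change of Vector+EST against Vector (vertical), coloured by call. The 933 risen and 828 fallen genes are spread along the axis, whose position depends in part on the change itself since 9 of the 12 libraries lie on the Vector+EST side, and points far from 0 at the left edge are genes with few counts in at least 1 group.

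The 10 largest rises among genes averaging a log2 CPM of 3 or more, chosen like the falls from genes without overlap between groups, were Actn3, Btn1a1, Arl4d, Fam234a, Rogdi, Gja6, Tmem120b, Slc46a3, Btg2 and Zbtb46. Fam234a (chromosome 17, 26212692 to 26244307 in GRCm38.p6) stood at 12.3, 11.5 and 14.7 CPM in Vector and at 224, 209.6 and 218 CPM in Vector+EST. Rogdi (chromosome 16, 5008729 to 5013574) went from 12.5, 11.9 and 10.8 CPM to 189, 189 and 207 CPM. Both were higher in every Vector+EST library than in any Vector library, with log2 fold changes of 4.08 ± 0.089 (SE; adjusted p = 3.07e-15) and 4.05 ± 0.093 (adjusted p = 5.28e-15). Slc46a3, a lysosomal transporter, stood at 18.5, 17.8 and 15.4 CPM against 174, 171 and 183 CPM. Btg2, a brake on cell division that binds the CCR4-NOT deadenylase, stood at 29.9, 31.9 and 27.6 CPM against 302, 284 and 308 CPM, a 9.99-fold rise. The remaining 6 were below 5 CPM on average in Vector. They include Actn3, a muscle-type actin crosslinker (from 0.767 to 23.4 CPM), Btn1a1, a butyrophilin of milk fat (from 3.07 to 62.4 CPM), Arl4d, a small GTPase (from 2.05 to 38.5 CPM), and Zbtb46, a zinc finger factor known from dendritic cells (from 1.18 to 11.1 CPM). Gja6, a connexin, rose from 2.69 to 35.6 CPM and overlaps another annotated gene. Tmem120b, a membrane protein gene, rose from 4.98 to 52.5 CPM and overlaps Rhof, a GTPase gene that rose from 33 to 49.7 CPM. Zbtb46 overlaps Zgpat in the annotation, and among the largest falls Lyl1 overlaps Nfix and Map1a overlaps Trp53bp1. The use of strand in the counting was not stated, so how reads of such overlapping genes were assigned is uncertain.

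The 10 largest falls were Slc4a1, Lyl1, Il4ra, Map1a, Ikzf4, Gda, Tgm1, Serpinb9c, Treml2 and Stk10. Treml2, a receptor of the TREM family, stood at 127, 124 and 127 CPM in Vector and at 11.7, 9.52 and 9.34 CPM in Vector+EST, a 12.4-fold fall with a log2 fold change of -3.63 ± 0.10 (SE; adjusted p = 3.70e-14). Stk10, a kinase of proteins that tie membrane to actin, stood at 68.3, 69.9 and 71.4 CPM against 5.88, 5.59 and 7.11 CPM. Map1a, a microtubule-associated protein, stood at 44.8, 42.3 and 47.7 CPM against 3.40, 2.77 and 1.70 CPM. In all 3 genes the EST libraries lay far under the lowest Vector library. The others were Slc4a1, the anion exchanger band 3 of the red cell membrane (from 67.6 to 2.86 CPM), Lyl1, a basic helix-loop-helix factor of progenitors (from 338 to 16.8 CPM), and Il4ra, the interleukin 4 receptor chain (from 60.3 to 3.48 CPM). Ikzf4, an Ikaros family factor, fell from 28.3 to 2.03 CPM, Gda, a guanine deaminase, from 33.7 to 2.44 CPM, Tgm1, a transglutaminase, from 27.3 to 2.11 CPM, and Serpinb9c, a serine protease inhibitor, from 27.3 to 2.12 CPM.

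**Figure D2:**
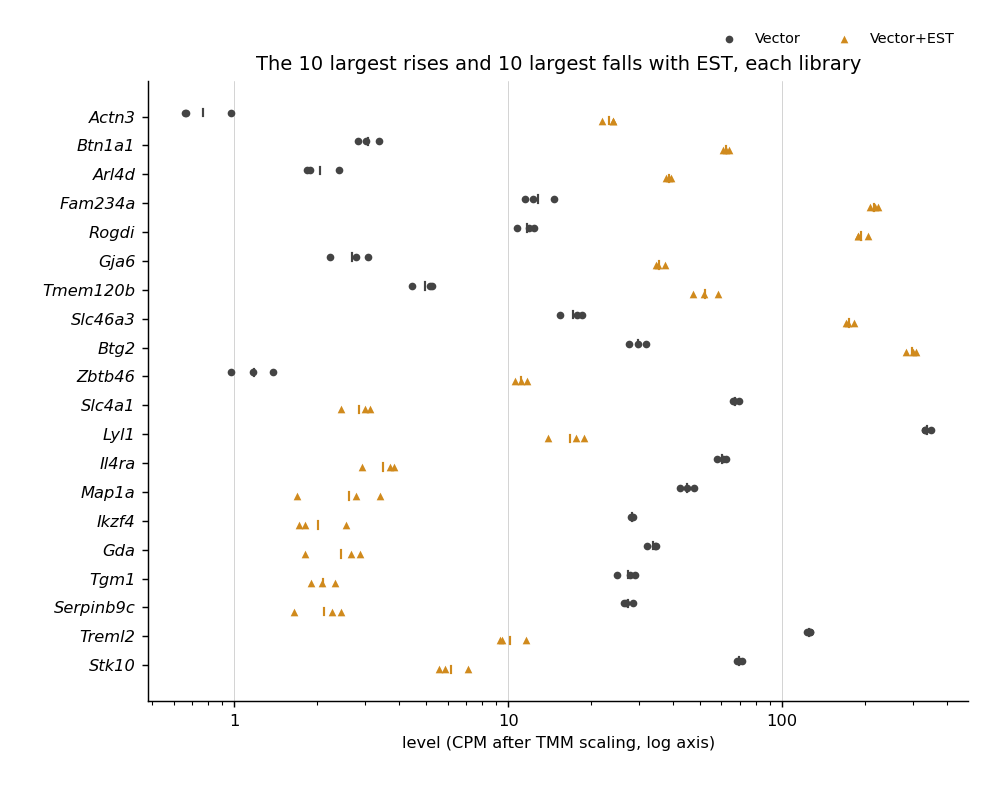
Level of the 10 largest rises and 10 largest falls (CPM, log axis) in each Vector library (circles) and each Vector+EST library (triangles), with short lines at the group means. The genes were chosen without overlap between groups, and the rises end between 11.1 and 298 CPM.

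Promoter windows of these genes were taken from RefSeq, 250 bases before to 50 after a start site, and searched for the GATA letters AGATAA, also with G as the last base, T as the first, or both, on both strands. Of the 20 genes 15 matched the table, and 4 of the 15 had a match in at least 1 window. Counted by window and not by gene, the letters stood in 19.8% of all windows of tested genes. Fam234a and Serpinb9c each had another window without a match, which is not printed. These 4 windows are printed because GATA1's own letters stand in them, among the promoter windows of the largest changes. Those of Zbtb46 and Serpinb9c belong to start sites inside the annotated genes, which span chr2:181371009-181493262 and chr13:33149275-33159754. Capitals mark the GATA letters, on whichever strand they lie. All are GRCm38.p6, given on the gene's strand, which is the plus strand for Tmem120b and the minus strand for the other genes.
Fam234a promoter, chr17:26244193-26244492: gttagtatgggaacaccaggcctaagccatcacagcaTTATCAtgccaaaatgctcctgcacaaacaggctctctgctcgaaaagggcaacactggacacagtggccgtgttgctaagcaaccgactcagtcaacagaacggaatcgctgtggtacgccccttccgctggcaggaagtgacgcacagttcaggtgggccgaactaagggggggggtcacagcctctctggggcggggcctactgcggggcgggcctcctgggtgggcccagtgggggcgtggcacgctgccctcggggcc
Tmem120b promoter, chr5:123076025-123076324: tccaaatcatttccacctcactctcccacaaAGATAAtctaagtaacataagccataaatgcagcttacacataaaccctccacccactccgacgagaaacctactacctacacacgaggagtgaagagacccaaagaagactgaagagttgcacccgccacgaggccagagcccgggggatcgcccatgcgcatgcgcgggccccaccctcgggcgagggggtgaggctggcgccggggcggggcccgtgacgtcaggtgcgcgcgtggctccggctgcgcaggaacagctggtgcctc
Zbtb46 promoter, chr2:181424339-181424638: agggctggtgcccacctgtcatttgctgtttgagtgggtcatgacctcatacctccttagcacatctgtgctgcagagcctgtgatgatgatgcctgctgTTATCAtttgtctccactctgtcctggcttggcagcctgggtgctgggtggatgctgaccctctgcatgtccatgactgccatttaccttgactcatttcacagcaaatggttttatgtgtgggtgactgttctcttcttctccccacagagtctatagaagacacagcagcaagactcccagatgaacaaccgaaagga
Serpinb9c promoter, chr13:33158302-33158601: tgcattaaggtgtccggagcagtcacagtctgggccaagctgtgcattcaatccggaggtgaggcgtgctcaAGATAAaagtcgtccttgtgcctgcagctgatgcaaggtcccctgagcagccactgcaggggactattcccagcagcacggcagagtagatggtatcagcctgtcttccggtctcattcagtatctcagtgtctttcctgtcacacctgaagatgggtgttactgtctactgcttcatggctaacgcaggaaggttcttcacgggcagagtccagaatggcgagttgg
The first 3 genes rose and Serpinb9c fell, so GATA letters stood in windows of genes of both directions, for Serpinb9c at a start site inside the gene. A match is a description of letters and not a bound site.

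Promoter windows were found for 9059 of the tested genes, 11522 windows in all. GATA letters stood in 19.8% of all windows, 22.5% of those of 2-fold risen genes and 23% of those of 2-fold fallen genes. At 4-fold the shares were 30.7% and 23.3%. The CACCC letters CCACACCC and CCCCACCC, which Klf factors recognise, were in 14.8% of all windows, 15.9% for risen and 21.5% for fallen genes. CAGCTG, the E-box of TAL1 and its relatives, had shares of 14.8%, 16.6% and 17.4%, and CACGTG, the E-box of MYC, had 9.96%, 8.96% and 11.4%. TGACTCA, the letters of AP-1 and, in part, NF-E2, were in 3.45%, 3.75% and 4.51%. The ETS letters CCGGAA and AGGAAG went the other way, with 52.0% of all windows against 47.8% and 44.1%. The full palindromic estrogen response element stood in 1 of the 11522 windows and in 0 windows of the 2-fold risen or fallen genes, and the sterol letters TCACNCCAC in 1.09%, 1.25% and 1.1%. In windows of 4-fold risen and 4-fold fallen genes the shares were 20% and 23.8% for CACCC, 17.6% and 21.2% for the TAL1 E-box, 11.2% and 8.29% for the MYC E-box, 4.88% and 7.25% for AP-1, 38% and 41.5% for ETS and 1.95% and 2.07% for the sterol letters. The sterol letters can overlap the CACCC letters, and the estrogen element the AP-1 letters. These shares are descriptions without a test, and median GC content of the windows was 60.3% for all and 2-fold risen genes and 59.7% for 2-fold fallen genes. At 4-fold it was lower, at 58.7% for risen and 58% for fallen genes.

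**Figure D3:**
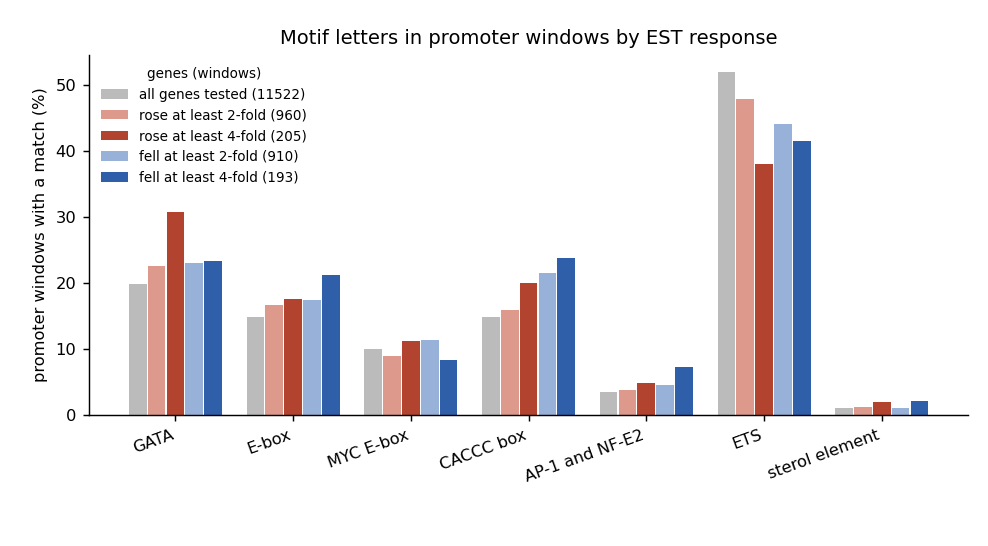
Share of promoter windows (%) that hold at least 1 match to each motif, for all tested genes and for genes that rose or fell at least 2-fold or 4-fold, with the number of windows in parentheses. The GATA bar is highest for 4-fold risen genes (30.7%), and the ETS bars of changed genes lie under that of all genes.

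Functional classes and families were described by counts, with 38 lists of genes by function and 44 families by symbol. Together they held 3587 of the tested genes, so 656 of the 933 risen and 566 of the 828 fallen genes belonged to none. Of the 67 lists with at least 20 tested members, immediate early genes had a median of -0.79 (-0.93 to -0.64 over the alternatives) and the Wnt pathway one of 0.43 (0.0885 to 0.435, and 0.21 without Vector+EST library 5). Levels below are means of 3 libraries, named genes passed the adjusted p unless stated, and the shares of all genes, 35.2% and 35.5% past the threshold and 8.35% and 7.41% past 2-fold, stand beside every count that follows.

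**Figure D4:**
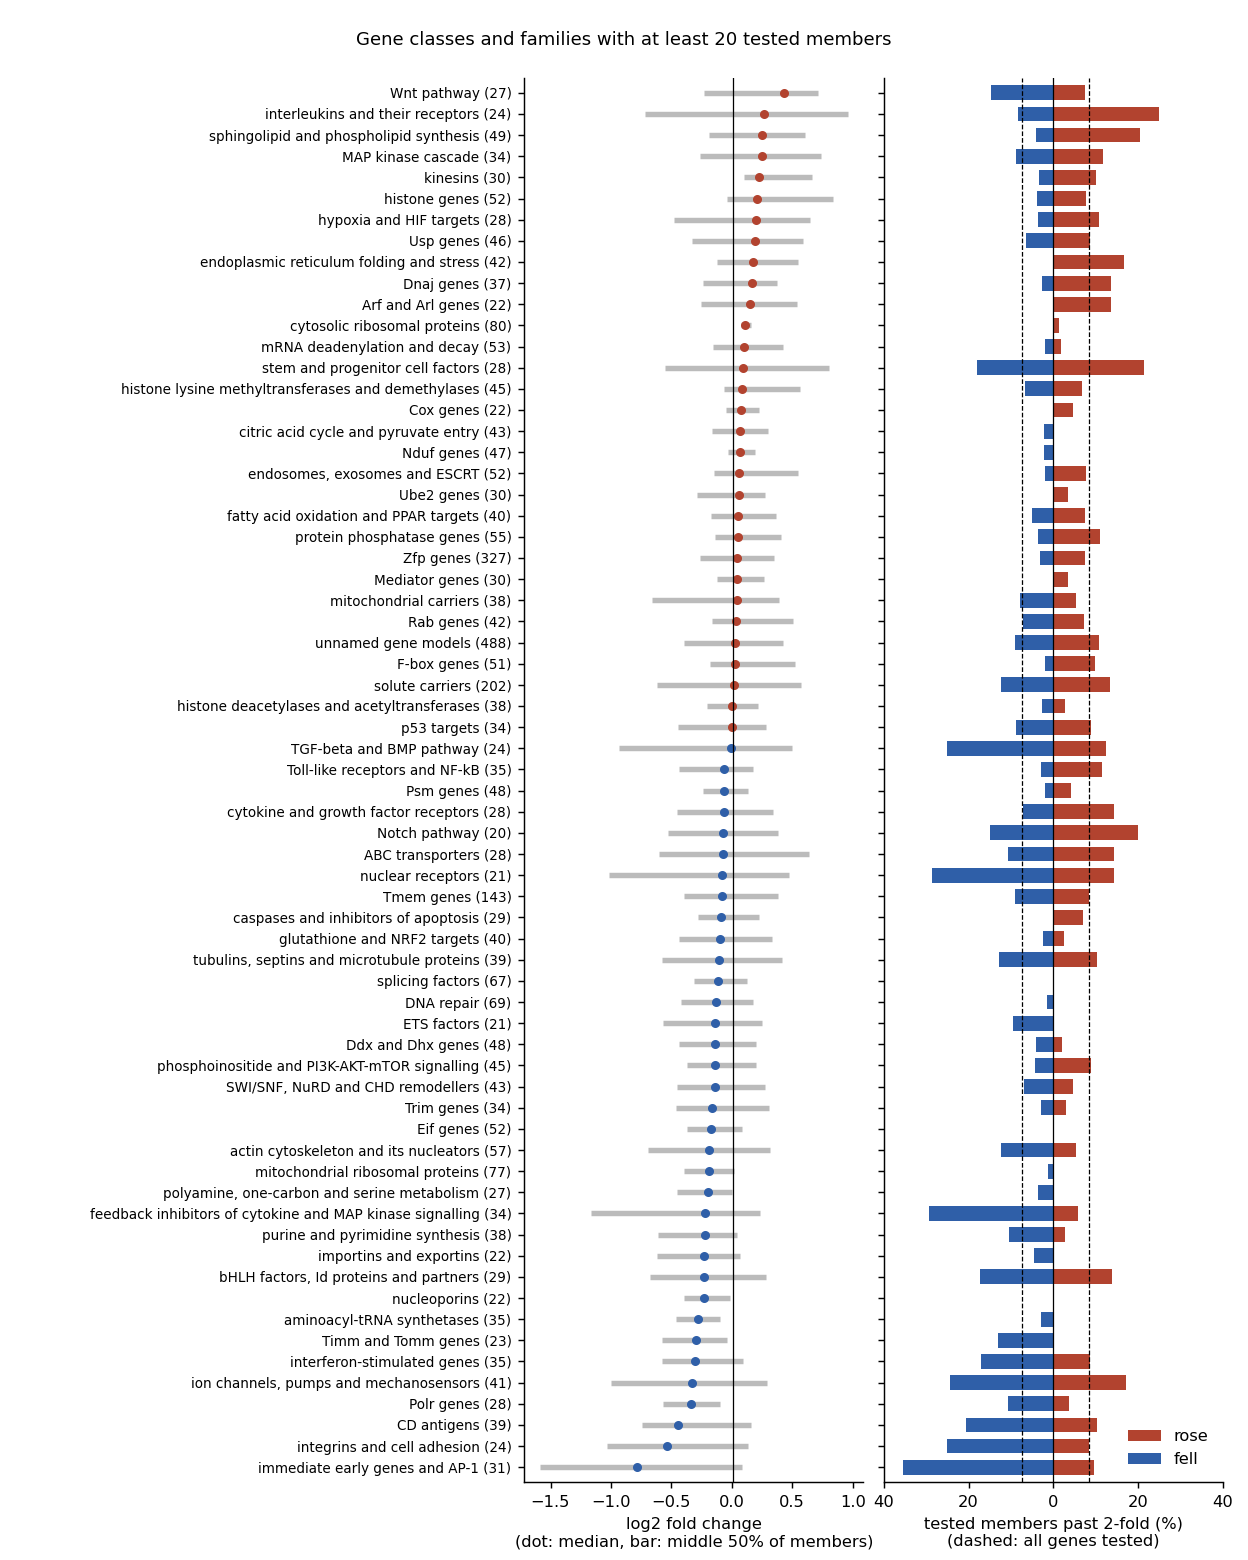
Left, median (dot) and middle 50% (bar) of the log2 fold changes in lists with at least 20 tested members (number in parentheses), beside the median of all genes (line). Right, share of members that rose or fell at least 2-fold (%), beside the shares of all genes (dashed lines, 8.35% and 7.41%), with immediate early genes at the bottom, at 35.5% fallen.

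Immediate early genes, which answer growth signals within minutes, and the AP-1 factors among them were mostly lower with EST. Of 31 tested members 21 fell and 8 rose, 11 and 3 of them at least 2-fold, and without Vector+EST library 5 the risen members were 5. Ier2, a nuclear early response protein, stood at 82.4, 75 and 69.9 CPM in Vector and at 11.6, 10.9 and 11.9 CPM in Vector+EST, a log2 fold change of -2.73 ± 0.082 (SE; adjusted p = 9.89e-14). Klf10, a TGF-beta-induced zinc finger factor, fell from 25.2 to 4.65 CPM, and Zfp36l2, which marks AU-rich messengers for decay, fell from 421 to 92.9 CPM. The AP-1 subunit Fos fell from 6.41 to 3.54 CPM and Fosb from 12.2 to 7.05 CPM. Fosl1, a further subunit, was at 2.31, 2.34 and 2.41 CPM in Vector and at 0, 0 and 0.0531 CPM in Vector+EST, where it was at or under 1 count. Fosl2 fell from 6.05 to 0.716 CPM. Myc, the growth regulator that is part of the same early response, fell from 401 to 126 CPM. Against this trend stood Btg2, with the 9.99-fold rise given above, Mafk, the small Maf partner of NF-E2 (from 50.3 to 124 CPM), and Gadd45g, a growth arrest gene (from 12.6 to 26.2 CPM).

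Among inhibitors that damp cytokine and MAP kinase signals more genes fell than rose as well. Of 34 members 17 fell and 10 rose, 10 and 2 at least 2-fold. Cish, a STAT5-induced inhibitor of cytokine receptors, stood at 142, 136 and 129 CPM against 32.4, 29.8 and 35.6 CPM with EST. Ptpn6, the phosphatase SHP-1 that switches off the erythropoietin receptor, stood at 110.0, 109 and 111 CPM against 24.5, 22.6 and 25.5 CPM. Both fell over 4-fold, 4.16-fold and 4.54-fold. Trib3, a pseudokinase of the stress response, fell from 17.7 to 1.74 CPM, Socs2 from 87.5 to 55.5 CPM and Socs3 from 4.09 to 0.647 CPM, the last 2 being inhibitors of JAK-STAT signals. Socs1, of the same family, fell from 2.52 to 1.05 CPM. Members that rose included Socs7 (from 40.3 to 135 CPM), the JNK and p38 phosphatase Dusp16 (from 30.7 to 83.7 CPM) and the ubiquitin ligase Cbl (from 102 to 187 CPM). In the MAP kinase cascade itself 16 of 34 members rose and 13 fell. Mapk9, which encodes JNK2, rose from 72.1 to 250.2 CPM and Map3k2 from 14 to 38.7 CPM, while Map2k3, the kinase above p38, fell from 201 to 72.4 CPM and Map3k6 from 69.6 to 19.7 CPM. Of 45 PI3K-AKT-mTOR genes 23 fell and 13 rose. Pdpk1, the kinase that activates AKT, rose from 53.5 to 117 CPM, Pip5k1a, a phosphoinositide kinase, from 78.7 to 211 CPM, and Phlpp2, a phosphatase of AKT, from 29.4 to 62.4 CPM. Gab2, a docking protein of KIT and cytokine receptors, fell from 139 to 59.2 CPM, Plcb2, a phospholipase C, from 12.8 to 3.89 CPM, and Akt1s1, an mTORC1 inhibitor, from 141 to 80.2 CPM.

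Receptors for cytokines and growth factors moved in both directions, with 7 of 28 tested members up and 11 down. Of 24 interleukin and interleukin receptor genes 11 rose and 8 fell, 6 and 2 at least 2-fold, or 25% and 8.33%, with a median of 0.27 (0.0689 to 0.362 over the alternatives). The common beta chain of the GM-CSF and interleukin 3 receptors, Csf2rb, stood at 68.1, 65.3 and 65.5 CPM in Vector and at 492, 456 and 475 CPM in Vector+EST, a 7.15-fold rise (log2 fold change 2.84 ± 0.15, adjusted p = 5.17e-11). Its close copy Csf2rb2 rose from 16.8 to 87.4 CPM, and reads of the pair may be split between them. The alpha chain Csf2ra was at 10.3 ± 0.219 against 11.7 ± 0.989 CPM (SD; adjusted p = 0.0727). Il6st, the signal chain gp130, rose from 2.98 to 9.36 CPM, Il17rc from 2.81 to 7.18 CPM and Il9r from 13.4 to 24.9 CPM. Il4ra fell as given above, Il12rb1, a chain of the interleukin 12 receptor, fell from 5.46 to 1.55 CPM, and Il1rl1, the interleukin 33 receptor, from 114 to 58.2 CPM. Of the receptors that sustain erythroid precursors, Kit, the stem cell factor receptor, fell from 326 to 253 CPM and Epor, the erythropoietin receptor, from 114 to 63 CPM.

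Among receptors for chemoattractants only 9 of 34 in the table could be tested. The sphingosine-1-phosphate receptor genes S1pr1 and S1pr2 rose from 5.32 to 16.7 CPM and from 9.46 to 16.9 CPM, and P2ry1, an ADP receptor, fell from 27.1 to 9.79 CPM. Of 11 tested TNF family genes 2 rose, Tnfrsf14 (from 42.7 to 71.8 CPM) and Tnfsf9 (from 3.49 to 4.96 CPM), and 5 fell, Tnfrsf13b (from 42.3 to 30.0 CPM) and the death receptor Tnfrsf10b (from 16.5 to 12.2 CPM) among them. The call of Tnfsf9 was lost without Vector library 1, Vector library 5 or Vector+EST library 5, with adjusted p between 0.06 and 0.0967.

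Surface and adhesion genes had more falls than rises. Of 24 tested integrins and adhesion molecules 13 fell and 5 rose, with a median of -0.54 (-0.76 to -0.14 over the alternatives). Podxl, a sialomucin that keeps membranes apart, stood at 705, 694 and 726 CPM in Vector and at 116, 116 and 118 CPM in Vector+EST, a 6.08-fold fall (log2 fold change -2.60 ± 0.13, adjusted p = 5.48e-11). Itga2b, the platelet integrin chain CD41, fell from 28.1 to 5.14 CPM, Itgal, the leukocyte chain of LFA-1, from 13.9 to 2.96 CPM, and Itga4, of the fibronectin receptor VLA-4, from 303 to 226 CPM. The erythroid adhesion molecule Icam4 went the other way, at 19.2, 14.5 and 17.4 CPM against 69.4, 73.2 and 75 CPM, and Icam2 rose from 35.5 to 63.7 CPM and Itgav from 17.7 to 25.2 CPM. Of 39 genes named by CD number 21 fell and 7 rose, 8 and 4 at least 2-fold. Cd55, a complement inhibitor, fell from 89.4 to 32.5 CPM, Cd151 from 37.4 to 16.8 CPM and Cd37 from 109.5 to 58.8 CPM. The last 2 are tetraspanins, proteins that cross the membrane 4 times and gather partners around them, and among 9 tested genes of that family symbol 6 fell and 1 rose. Tspan4 fell from 34.6 to 5.20 CPM, Tspan14 from 95.5 to 46 CPM and Tspan32 from 248 to 142 CPM, and Tspan15 rose from 4.79 to 10.6 CPM.

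Genes of the developmental pathways moved in both directions. In the Notch pathway 8 of 20 genes rose and 9 fell. The receptor Notch3 stood at 15, 13.3 and 15.1 CPM against 2.11, 1.99 and 1.91 CPM with EST, and the target Hes1, a repressor, fell from 37.8 to 13.6 CPM. Among genes that process the receptor, Psen2, a catalytic part of gamma-secretase, rose from 46 to 212 CPM and Adam17, a metalloprotease of its outer cut, from 36.7 to 79.8 CPM. Numbl, which is related to the inhibitor Numb, rose from 12.5 to 28.9 CPM, and Rfng, a sugar transferase of Notch, fell from 66.6 to 43 CPM. In the Wnt pathway 15 of 27 genes rose and 8 fell, with 2 and 4 past 2-fold. Porcn, the enzyme that lipidates Wnt ligands, stood at 5.80, 3.57 and 3.63 CPM against 34.4, 35.5 and 36.9 CPM. The co-repressors Tle2 and Tle3 rose from 1.06 to 5.88 CPM and from 64.4 to 119.5 CPM. The receptor Fzd7 fell from 57.9 to 13.6 CPM, the nuclear effector Tcf7l2 from 23.5 to 7.97 CPM, and Wls, which carries Wnt ligands to the surface, from 50.1 to 23.3 CPM. Of 24 genes of the TGF-beta and BMP pathway 8 rose and 10 fell, or 33.3% and 41.7%, against 35.2% and 35.5% of all genes. The receptor Bmpr2 rose from 43.5 to 111 CPM, the decoy receptor Bambi from 5.59 to 12.1 CPM, and the BMP signal carrier Smad5 from 36.2 to 74.2 CPM. The co-repressor Tgif1 fell from 15 to 2.34 CPM and the inhibitory Smad6 from 7.30 to 3.61 CPM.

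Innate immune genes moved in both directions. In the Toll-like receptor and NF-kB list 9 of 35 rose and 12 fell, or 25.7% and 34.3%, against 35.2% and 35.5% of all genes. The kinase Map3k7, which encodes TAK1, rose from 93.7 to 196 CPM, its binding partner Tab3 from 32.3 to 87.4 CPM and the kinase Ripk2 from 6.99 to 15 CPM, while the NF-kB subunits Rel and Relb fell from 4.08 to 1.74 CPM and from 3.85 to 1.99 CPM, and the adaptor Myd88 from 88.1 to 53.5 CPM. Of 35 tested interferon-stimulated genes 16 fell and 6 rose. Lgals3bp, a secreted glycoprotein, fell from 40.9 to 9.75 CPM, the exonuclease Isg20 from 6.62 to 2.16 CPM, and the dNTP hydrolase Samhd1 from 120.0 to 59.2 CPM. Of those that rose, Usp18, which removes the ubiquitin-like ISG15, was at 0.257, 0.204 and 0.154 CPM in Vector, near the floor, and at 6.03, 7.48 and 7.0 CPM in Vector+EST, and the factor Irf2 rose from 47.2 to 76.9 CPM. Among 15 genes of antigen presentation 7 fell and 3 rose. The class I light chain B2m was at 249 ± 12 against 225 ± 2.86 CPM (adjusted p = 0.0195), and its call was lost without Vector library 1 (adjusted p = 0.109). The heavy chain H2-D1 fell from 83.1 to 60.5 CPM, the loading factor Tapbp from 29.6 to 15.1 CPM and the immunoproteasome subunit Psmb10 from 31.4 to 21.4 CPM, and H2-K1 was at 2.73 ± 0.389 against 2.34 ± 0.215 CPM (adjusted p = 0.286).

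EST can also act through natural estrogen receptors, so their genes and classic targets were listed. Esr2, the second nuclear receptor, was at 0.375 ± 0.108 against 0.523 ± 0.139 CPM (SD, n = 3; adjusted p = 0.389), and the membrane receptor Gper1 was at or under 1 count in each of the 6 libraries. The classic target Pgr, the progesterone receptor, was at 0.477 ± 0.193 against 0.365 ± 0.133 CPM (adjusted p = 0.488). Of 9 tested members 1 rose, the stress factor Xbp1 (from 83.8 to 106 CPM), and 4 fell, the lysosomal protease Ctsd (from 201 to 122.8 CPM) and the retinoic acid receptor Rara (from 13.2 to 6.51 CPM) among them.

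**Figure D5:**
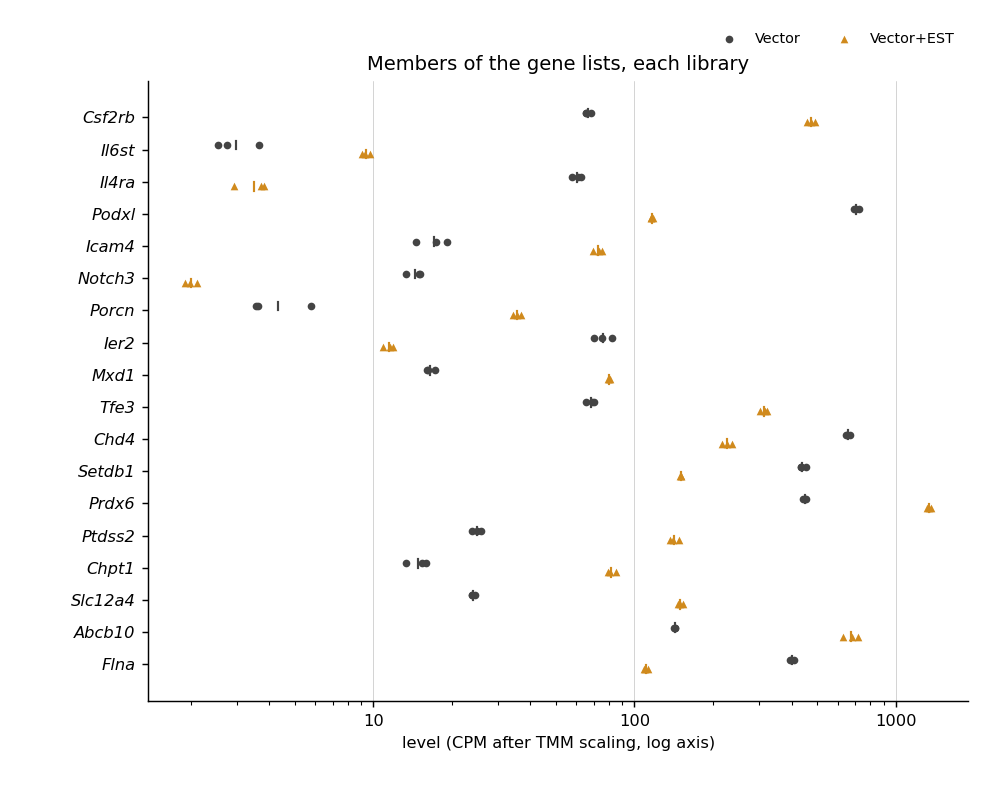
Level (CPM, log axis) of 18 members of the gene lists in each Vector library (circles) and each Vector+EST library (triangles), with short lines at the group means. The genes were picked from called members with large changes, so that the groups do not overlap in any of the 18 is no separate evidence. Over all tested genes 75.7% had no overlap. The distance between groups ranges from Chd4, Setdb1 and Prdx6, near 3-fold, to Il4ra, over 10-fold.

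Among 29 basic helix-loop-helix genes 16 fell and 9 rose. Tal1, which sits beside GATA1 in a DNA-bound complex, fell from 479 to 99.8 CPM, and its relative Lyl1 fell as given above. As Myc fell from 401 to 126 CPM, Mxd1, which competes with MYC for the partner MAX, stood at 17.2, 16.2 and 16.1 CPM in Vector and at 80.1, 79.4 and 81 CPM with EST. Tfe3, a regulator of lysosome genes, rose from 68.1 to 314 CPM and the clock gene Clock from 19.1 to 41.9 CPM. Of 28 stem and progenitor factors 14 rose and 11 fell, 6 and 5 at least 2-fold, above the background share on both sides. Gfi1b, a repressor needed for red cells and platelets, rose from 292 to 752 CPM, Runx1, a master factor of blood stem cells, from 143 to 244 CPM, Lmo4 from 24.4 to 55.6 CPM and Meis1, a partner of Hox proteins, from 4.02 to 8.88 CPM. Cbfa2t3, the ETO2 co-repressor bound to the TAL1 complex, fell from 348 to 74.9 CPM, Pbx2 from 89.3 to 31 CPM and Myb, a factor of proliferating progenitors, from 337 to 240.1 CPM.

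The ETS family had 9 of 21 members down and 5 up. Spi1, which encodes the GATA1 antagonist PU.1, fell from 56.8 to 38.3 CPM, Elf4 from 88.3 to 36 CPM, the repressor Erf from 114 to 48.5 CPM and Etv6 from 69 to 35.2 CPM, while Fli1, a factor of megakaryocytes, rose from 14.1 to 25.8 CPM and Etv5 from 19.5 to 31.2 CPM. In the Klf and Sp family Klf13 rose from 59.1 to 212 CPM and Klf1, the erythroid member, from 267 to 335 CPM, while Klf6 and Klf9 fell from 50.9 to 15.8 CPM and from 42.8 to 14.8 CPM. Of 21 nuclear receptors 9 fell and 6 rose, 6 and 3 at least 2-fold, or 28.6% and 14.3%. The thyroid hormone receptors Thra and Thrb fell from 61.7 to 20.5 CPM and from 16.7 to 4.03 CPM, and the orphan receptor Nr2c2, which encodes TR4, rose from 34.6 to 48.5 CPM. Forkhead genes included the stress factor Foxo3, which rose from 132 to 254 CPM, and Foxp4, which fell from 27.6 to 12.9 CPM. Of 12 tested Hox genes 7 rose, among them Hoxc5 (from 36 to 128 CPM), Hoxb13 (from 25.2 to 49.2 CPM) and Hoxc4 (from 56.6 to 72.7 CPM), and 1 fell, Hoxc8 (from 12.9 to 3.38 CPM). Zfp genes, the largest family with 327 tested, rose in 107 and fell in 88 cases, with 24 against 10 past 2-fold. Zfp667 rose from 8.92 to 40.0 CPM and Zfp512b from 92 to 336 CPM, and Zfp385a fell from 266 to 91.8 CPM. Clock genes beyond Clock itself moved apart, with the leucine zipper factors Tef rising from 54.6 to 123.4 CPM and Dbp falling from 7.55 to 1.95 CPM, and the repressor Per1 falling from 36.8 to 21.7 CPM.

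Of 43 remodeller genes 22 fell and 15 rose. Chd4, the motor of the NuRD complex, stood at 647, 653 and 668 CPM against 226, 216 and 237 CPM, and its relative Chd3 fell from 178 to 84.1 CPM, while Chd2 and Chd8 rose from 90.3 to 251 CPM and from 173 to 326 CPM and Baz1a from 199 to 508 CPM. Of 38 histone deacetylase and acetyltransferase genes 12 rose and 13 fell. The acetyltransferases Kat2a (GCN5) and Kat2b (PCAF), close relatives, changed in opposite directions. Kat2a fell from 168 to 62.8 CPM and Kat2b rose from 25.4 to 61.6 CPM. Hdac7 rose from 80.1 to 158 CPM, Hdac1 fell from 182 to 161 CPM, and the scaffold Sin3a fell from 106 to 60.8 CPM. Among 45 histone lysine methylases and demethylases 19 rose and 11 fell. Setdb1 and Setdb2, related methylases of histone H3, also moved apart, with Setdb1 falling from 440.2 to 150.4 CPM and Setdb2 rising from 16.9 to 38.6 CPM. The demethylase Kdm7a rose from 12.3 to 51.1 CPM and Kmt5c, a methylase of histone H4, from 217 to 535 CPM. Of 52 tested histone genes 9 rose, 4 without Vector+EST library 5, the variant gene H2az2 among them (from 43.7 to 113 CPM), and 6 fell.

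Splicing genes moved little by size. None of 67 splicing factors passed 2-fold, with 35 down, such as Sf3b4 (from 319 to 199 CPM) and Hnrnpf (from 964 to 614 CPM), and 21 up, such as Hnrnph3 (from 19.6 to 38 CPM). Of 53 genes of messenger deadenylation and decay 24 rose and 15 fell, 1 in each direction at least 2-fold. The deadenylase Cnot6 rose from 156 to 299 CPM, beside Btg2, which recruits the same complex, while Zfp36l1 fell from 95.9 to 51.4 CPM beside Zfp36l2. Of 28 RNA polymerase subunits 18 fell and 3 rose. The RNA polymerase I subunits Polr1b and Polr1e fell from 132 to 43.6 CPM and from 43.1 to 19 CPM, and the polymerase III subunit Polr3g rose from 49.5 to 118 CPM. Mediator genes were even, at 9 up and 7 down of 30, with Med13, of its kinase module, rising from 64.6 to 190.1 CPM.

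Several families of growth and protein supply had more falls than rises, mostly by small steps. Of 35 aminoacyl-tRNA synthetases 26 fell and 5 rose, and the mitochondrial Yars2 fell most (from 41.9 to 18.9 CPM). Of 23 genes of mitochondrial protein import 16 fell, with the intermembrane chaperones Timm8a1 (from 101 to 49 CPM), Timm9 (from 38.2 to 18.1 CPM) and Timm10 (from 34.9 to 16.9 CPM) past 2-fold, and Timm8b alone rose (from 52 to 75.5 CPM). Mitochondrial ribosomal proteins fell in 45 of 77 cases, Mrpl12 most (from 206 to 102 CPM). Cytosolic ribosomal proteins did not fall with them. Of 80 tested 51 rose and none fell, with a median of only 0.11, Rpl37 (from 552 to 684 CPM) and Rpl28 (from 1535 to 1865 CPM) among them. Without Vector+EST library 5 the count was 33 up and 1 down, and reads of these genes may be shared with processed copies. Translation initiation factors fell in 28 and rose in 13 of 52 cases, none past 2-fold. Eif1ad fell from 103 to 58.9 CPM, and Eif2ak1, the heme-regulated kinase HRI, rose from 120.4 to 239.5 CPM. Nuclear pore genes fell in 14 of 22 cases, Nup43 most (from 47 to 26 CPM). Among 22 nuclear transport receptors 13 fell, with importin beta, Kpnb1, falling from 869.6 to 426 CPM, and 5 rose, with Xpo7, an exportin abundant in erythroid cells, rising from 117 to 230.3 CPM. Mcm genes, the replicative helicase and its relatives, fell in 8 of 9 cases, for example Mcm6 (from 677 to 459.9 CPM) and Mcm10 (from 169 to 112 CPM).

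More genes of nucleotide synthesis fell than rose. Of 38 genes 26 fell and 7 rose. Gart, a trifunctional enzyme of purine synthesis, fell from 359 to 168 CPM, and the first step, Ppat, from 141 to 111 CPM, and Paics from 323 to 284 CPM. The salvage kinase Dck, which phosphorylates deoxycytidine, rose from 61.6 to 128 CPM. In the polyamine, one-carbon and serine list 14 of 27 fell and 5 rose. Amd1, which makes the aminopropyl donor of polyamines, fell from 377 to 193 CPM, spermidine synthase Srm from 383 to 205 CPM and Mat2a, which makes S-adenosylmethionine, from 522 to 292 CPM. The ornithine decarboxylase gene Odc1 was at 596 ± 12.9 against 529.9 ± 15.4 CPM (SD, n = 3; adjusted p = 0.0893), and Azin1, which protects its product, rose from 86.4 to 124 CPM.

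Genes of mitochondrial carbon and fat metabolism moved in both directions. Of 43 citric acid cycle genes 21 rose and 16 fell. Sucla2, a succinyl-CoA ligase subunit, rose from 68 to 132 CPM, while glutamine synthetase, Glul, fell from 134 to 65.5 CPM. In fatty acid oxidation 15 of 40 rose and 11 fell, or 37.5% and 27.5%, against 35.2% and 35.5% of all genes. Plin2, which coats lipid droplets, rose from 148 to 367 CPM and Cpt1c from 7.18 to 19.1 CPM, and the acyl-CoA synthetase Acsl3 fell from 84.7 to 35.3 CPM. Antioxidant genes were mixed, with 13 of 40 up and 18 down. Prdx6, a peroxiredoxin that repairs peroxidised lipids and is abundant in red cells, stood at 455, 443 and 450.3 CPM against 1367, 1321 and 1340.0 CPM with EST, a 2.99-fold rise (log2 fold change 1.58 ± 0.035, adjusted p = 3.42e-15). Gclc, the first enzyme of glutathione synthesis, rose from 110.5 to 204 CPM, while the NRF2 targets Srxn1 and Txnrd1 fell from 45.6 to 23.6 CPM and from 226 to 120.4 CPM. Of 28 hypoxia genes 14 rose and 11 fell. Hif1a itself rose from 72.1 to 154 CPM and the glycolytic regulator Pfkfb4 from 10.3 to 31.7 CPM, while its inhibitor Cited2 fell from 223 to 73.5 CPM and its target Vegfa from 23.3 to 11.8 CPM.

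Membrane lipid synthesis was among the lists with most 2-fold rises. Of 49 genes 27 rose and 13 fell, 10 and 2 at least 2-fold, or 20.4% and 4.08%. Ptdss2, which makes phosphatidylserine, stood at 23.8, 24.9 and 25.9 CPM in Vector and at 140.1, 137 and 148 CPM in Vector+EST, a 5.71-fold rise (log2 fold change 2.51 ± 0.069, adjusted p = 3.70e-14). Chpt1, the last step of phosphatidylcholine synthesis, stood at 15.4, 13.4 and 15.9 CPM against 80.5, 84.9 and 79.3 CPM. Mboat2, which attaches fatty acids to lysophospholipids, rose from 10.1 to 49.2 CPM. All 3 enzymes build glycerophospholipids and were lower in every Vector library than in any Vector+EST library. The exporters of sphingosine-1-phosphate fell, both Spns2 (from 148 to 47.5 CPM) and Mfsd2b, the exporter of red cells (from 275 to 124 CPM), and the ceramide synthase Cers2 fell from 460.4 to 271 CPM.

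Transporters move ions and metabolites across membranes. Of 202 tested solute carriers 76 rose and 74 fell, 27 and 25 at least 2-fold, or 13.4% and 12.4%. Slc12a4, the potassium-chloride cotransporter KCC1 of red cells, stood at 24.6, 23.9 and 23.9 CPM in Vector and at 149.8, 147 and 153 CPM in Vector+EST, a 6.21-fold rise (log2 fold change 2.64 ± 0.054, adjusted p = 2.17e-15). Slc9a3r1, a scaffold protein numbered with the carriers although it is none, fell from 191 to 34 CPM, and Slc41a3, of a magnesium transporter family, from 51 to 6.77 CPM. In the ion channel, pump and mechanosensor list 7 of 41 rose and 10 fell at least 2-fold, or 17.1% and 24.4%. The ATP-gated channel P2rx1 fell from 15.1 to 1.69 CPM, the Gardos channel Kcnn4 from 98.3 to 29.8 CPM, the calcium pump Atp2a3 from 56.5 to 20.4 CPM and the mechanosensor Piezo1 from 307 to 149.8 CPM. The potassium channel subunit Kcne3 rose from 12.6 to 33.3 CPM.

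Of 28 ABC genes 9 rose and 13 fell. Abcb10, a mitochondrial transporter known as a GATA1-induced gene of erythroid cells, stood at 143, 142 and 143 CPM against 684, 627 and 717 CPM, and Abca3, a lipid transporter, rose from 149 to 350.5 CPM. Abca1, which exports cholesterol, fell from 10.2 to 1.38 CPM. Mitochondrial carriers were even, at 14 up and 14 down of 38, 5.26% and 7.89% past 2-fold, with Slc25a17, which despite its family serves peroxisomes, rising from 33.4 to 83.1 CPM and the ornithine carrier Slc25a15 falling from 21.2 to 9.30 CPM.

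In the actin list 33 of 57 genes fell and 16 rose. Beta-actin, Actb, stood at 958, 999.7 and 1050.0 CPM against 537, 526 and 621 CPM. The crosslinker Flna stood at 395, 396 and 409 CPM against 109, 113 and 109.7 CPM, a 3.62-fold fall. The Arp2/3 subunit Arpc1a rose from 99 to 201 CPM. The red cell actin cap Tmod1 fell from 31 to 5.86 CPM and the motor Myo1g from 132 to 33.7 CPM. Kinesins, motors that walk on microtubules, rose in 19 of 30 cases and fell in 3. The cargo motors Kif5b and Kif1b rose from 134 to 329 CPM and from 31 to 95 CPM, and Kif21b fell from 70.5 to 13.3 CPM. Map4, which stabilises microtubules, rose from 64.9 to 144 CPM and Septin10 from 3.39 to 12.1 CPM, while Septin9 fell from 207 to 57 CPM.

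In secretory quality control more genes rose than fell. Of 42 genes of folding and stress in the endoplasmic reticulum 21 rose and 12 fell, with 7 rises and no fall past 2-fold. Selenos, a selenoprotein of the disposal channel for misfolded proteins, stood at 40.6, 41.3 and 41 CPM against 168, 174 and 154 CPM. Ern1, the stress sensor IRE1, rose from 20.9 to 60.0 CPM, its target Dnajb9 from 13.1 to 34.7 CPM and the oxidase Ero1a from 224 to 527 CPM. The abundant chaperone calreticulin, Calr, fell from 818 to 516 CPM, and Hspa5, the chaperone BiP, was at 455 ± 10.9 against 406 ± 20.1 CPM (adjusted p = 0.0161) and lost its call without Vector+EST library 5 (adjusted p = 0.0582). Ubiquitin enzymes included Ube2j1, which acts in the same disposal route and rose from 116 to 332 CPM. Of 46 ubiquitin-specific proteases 25 rose and 12 fell, with Usp33 (from 73.6 to 195 CPM) and Usp11 (from 45 to 114 CPM) up and the nucleolar Usp36 (from 115 to 48.5 CPM) down. Of 34 Trim genes, many of them ubiquitin ligases, 8 rose and 16 fell, and of 48 proteasome genes 13 rose and 22 fell. F-box genes had 5 rises and 1 fall past 2-fold of 51, and Fbxo42 rose from 55.5 to 138 CPM. HSP70 co-chaperones of the Dnaj family rose in 18 of 37 cases and fell in 9, with Dnajc16 rising from 22.5 to 67.1 CPM.

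Endosomal sorting genes rose in 23 of 52 genes, against 14 that fell. The clathrin adaptor subunit Ap2a1 stood at 241, 232 and 237 CPM against 863, 826 and 842 CPM, and the ESCRT-I subunits Tsg101 and Vps37a rose from 144 to 387 CPM and from 26.6 to 78 CPM. Of 17 subunits of the vacuolar proton pump 10 rose and 1 fell, with Atp6v0a1 rising from 135 to 414 CPM, Atp6v1e1 from 85.2 to 203 CPM and Atp6v0e from 71.8 to 162 CPM. The vesicle GTPase Rab8b rose from 107 to 235 CPM, in a family with 17 rises and 10 falls of 42.

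Among 34 p53 targets 11 rose and 14 fell, Btg2 being one of those that rose. Cdkn1a, the p21 inhibitor of the cell cycle, stood at 240.1, 228 and 236 CPM against 134, 132 and 143 CPM, and the death gene Bbc3, which encodes PUMA, fell from 40.7 to 13 CPM and the kinase Dyrk3 from 83.5 to 19.3 CPM. Mdm2, the brake on p53, rose from 73.9 to 93 CPM and the polymerase Polk from 15.8 to 36.8 CPM. In the caspase list Casp6 rose from 12.8 to 47.8 CPM and Apaf1, the core of the apoptosome, from 50.3 to 114 CPM, with 7 of 29 up and 11 down. DNA repair genes fell in 32 and rose in 17 of 69 cases, with Ercc8, of transcription-coupled repair, falling from 35.9 to 16.6 CPM and the helicase Wrn rising from 114 to 218 CPM.

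Complex I genes (Nduf) rose in 20 and fell in 9 of 47 cases, with Ndufb10 rising from 89.2 to 148 CPM. Cytochrome c oxidase genes (Cox) rose in 9 and fell in 3 of 22, with Cox7a1, the muscle-type subunit, rising from 2.27 to 10.2 CPM. Of 488 tested gene models with no name 128 rose and 120 fell, 52 and 44 at least 2-fold.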

How the data were processed

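Total RNA was extracted with TRIzol, messenger RNA was taken with oligo(dT) beads and copied with random hexamers, and libraries were read on a BGISEQ-500 as single reads of 50 bases. The values used are estimated counts of reads per gene, which the authors made from the reads and deposited without normalization, and of which 66.5% were whole numbers. The submitters' processing notes name HISAT2 2.0.4, Bowtie2 2.2.5, RSEM 1.2.12, DESeq2 1.4.5 and build GRCm38.p6, without a role for each. A deposited table of the authors' own comparisons per transcript (log2 fold changes, p-values and adjusted p-values for 4 pairs of groups) was not used. Groups came from the labels. Library numbers are those of the table's headers and are not the replicate numbers of the titles.

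Estimated counts were rounded and tested with edgeR 4.0.16 (R 4.3.3): TMM scaling, filterByExpr, 1 mean for each of the 4 groups, the quasi-likelihood F-test of Vector+EST minus Vector and Benjamini-Hochberg adjustment over the 11177 genes kept, with 6033 left out for low counts. Genes were called at an adjusted p under 0.05, and by a second rule at a fold of at least 2 besides. The ± after a log2 fold change is its SE, and after a CPM its SD over 3 libraries. Totals of 18700959 to 19152281 counts put 3 counts, taken as the floor, at 0.153 to 0.163 CPM. In simulated counts for this comparison over 11177 genes, 93.1% of 58 genes changed 1.5-fold, 95.8% of 72 changed 2-fold and 100% of 70 changed 4-fold were called, with 11 false calls among 204. The simulation left all other genes equal between groups, while 70.6% of genes passed in the data. Its rates may therefore not hold for the data.

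The members and lists were chosen with earlier results of these data known. The rule for names took the 10 largest rises and falls whose average log2 CPM was 3 or more, without overlap between groups, up to 3 called members a list in each direction at an average log2 CPM of 2 or more, the first 4 tested genes of a described list, and fixed regulators and markers. Genes that overlap one of these largest changes were named after their values were seen. Alternatives were DESeq2 1.42.0, other scalings, filters, fold thresholds and sample sets, a replicate block, and, added after seeing the data, a GC and length correction and fits without SREBP2 and SREBP2+EST libraries. Promoter sequences are RefSeq's, of GRCm38.p6. Some genes and 1 family that the rule named are not reported here.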

Additional observations from a re-analysis of the deposited data

Results flagged for a closer look

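The effect of EST was also measured in cells that carried active SREBP2, and it was compared with the effect in Vector cells by an interaction term in edgeR's quasi-likelihood test with Benjamini-Hochberg adjustment. The effects differed past an adjusted p of 0.05 for 6591 of the 11177 tested genes, and for each of the 20 genes with the largest changes in Vector cells, which were chosen by a change that is part of this contrast, so that their passing is no separate evidence. For the 10 largest rises the effect in SREBP2 cells minus that in Vector cells, on the log2 scale, was Actn3 (-4.85), Btn1a1 (-4.29), Arl4d (-4.18), Fam234a (-3.96), Rogdi (-3.92), Gja6 (-3.68), Tmem120b (-3.40), Slc46a3 (-3.21), Btg2 (-3.31) and Zbtb46 (-3.20). For the 10 largest falls it was Slc4a1 (4.35), Lyl1 (4.05), Il4ra (4.16), Map1a (3.56), Ikzf4 (3.77), Gda (3.43), Tgm1 (3.77), Serpinb9c (3.35), Treml2 (3.43) and Stk10 (3.50). Library 1 of the SREBP2 group and library 1 of the SREBP2+EST group stood apart from the other libraries of their group. Without both, 6452 genes passed, of which 6045 also passed with all libraries, and each of the 20 genes was among them, from -4.85 for Actn3 to 4.34 for Slc4a1. These differences are close to the EST effects in Vector cells themselves with the sign turned. Levels in SREBP2 libraries without EST lay near those of Vector+EST for Actn3, at 23.1 to 25.9 CPM against 22 to 24.2 CPM, with 0.662 to 0.973 CPM in Vector.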

How the results depend on the processing

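The number of genes that passed the adjusted p, 7893, lay between 7081 (replicate block) and 8229 (without library 1 of both SREBP2 groups) over 21 alternatives, was 7517 with DESeq2 and 8169 with the 6 libraries alone, and lay between 7460 and 8092 when 1 of the 12 libraries was left out. The 933 rises of at least 2-fold became 1819 at a threshold of 1.5-fold and 205 at 4-fold, and the 828 falls became 1688 and 211. With 1 library left out they were 861 to 948 rises and 834 to 912 falls, and with at least 10 counts required in every library 688 rises and 668 falls. The genes whose effect differed in SREBP2 cells, 6591, numbered 5387 with the block and 6230 to 6592 with 1 library left out. Leaving out libraries of the SREBP2 groups was chosen after seeing the data. Vector and Vector+EST share header numbers 1 and 5 only. Deviations from the group means correlated at -0.0444 and 0.0344 in these pairs, so the numbers were not taken to pair samples, and the replicate block gave 923 rises of at least 2-fold. It ended the calls of B2m (adjusted p = 0.0609) and Hspa5 (adjusted p = 0.108) and of no other named gene.

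Of 304 genes taken by the naming rule 7 changed their call or direction under at least 1 alternative. Col1a1, at a log2 fold change of 6.77, ran with 1 library left out from -2.64 (adjusted p = 0.4529, without Vector+EST library 5) to 7.36 (without Vector+EST library 1), and Fn1 lost its call without Vector+EST library 5 (adjusted p = 0.3925). Csf2ra gained a call without Vector+EST library 1 or SREBP2+EST library 1 and under the GC and length correction, and Odc1 under other filters, with the 6 libraries alone, and without SREBP2 library 1, both library 1s or SREBP2+EST library 2. Of 1680 medians of 80 lists recomputed under the alternatives 415 moved by more than the spread between libraries, and 77 of the lists moved under at least 1 alternative, 49 of them without both library 1s, 47 under the 10-count filter and 44 under the GC and length correction. Correcting each library for GC content and length, chosen after seeing the data, gave 7900 calls. Without it, falls of at least 2-fold took 4.3% of the lowest of 4 equal bins of GC content and 12.8% of the highest. Depth limits what can be said of genes near or under 0.163 CPM, the level of 3 counts.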
